A study of Drosophila melanogaster with 4 samples.

Results

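The centromere-proximal 2 Mb of Drosophila melanogaster chromosome arm 2L was examined together with 2LHet, a piece of second chromosome heterochromatin that FlyBase release 5 assembles apart from the arm. The regions were delimited by position, as 2L from 21011545 to 23011544 and all 368.872 kb of 2LHet, with earlier results of these data known. They were divided into consecutive tiles of 5 kb from the first base of each, which gave 400 tiles on 2L and 74 on 2LHet, the last of them 3872 bp long. These 474 tiles compare with 27949 tiles over all release 5 sequences other than Uextra, on which no cluster was placed. For each tile, the share of its bases lying under an H3K9me2 cluster was computed.

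All samples were wild-type embryos of the Oregon-R strain, 14 to 16 h old, with no treatment. Chromatin was precipitated with an antibody to histone H3 dimethylated at lysine 9 (H3K9me2), of a new lot according to the labels, in 2 replicates. Each replicate had its own input library, which enters here only through the enrichment calls of the authors. Nothing in the labels tells whether separate collections of embryos were used for the replicates, so each SD below gives the spread of these libraries, possibly a technical one. Whole embryos were used, so a cluster describes a mixture of cell types.

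H3K9me2 is placed by histone methyltransferases and read by heterochromatin protein 1, and it marks the silent, repeat-rich chromatin around fly centromeres. Along an arm, euchromatin passes into pericentric heterochromatin over a transition in which the mark becomes dense. Some genes, such as light and concertina on 2L, are known to be active within heterochromatin, and the tandem histone genes are known to lie near the base of this arm. No gene was placed on the positions below, since the available gene table follows release 6 coordinates and the cluster lists follow release 5.

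The authors deposited 1 list of clusters of significant enrichment for each replicate and 1 for the replicate set, called the repset list here. The region made up 1.70% of the assembled length and held 121 of 3579 clusters of replicate 1, 113 of 3238 of replicate 2 and 139 of 4277 of the repset list. It held 4.38% of all covered bases in replicate 1 and 4.48% in replicate 2. The lists give no read counts, so the depth behind a cluster is unknown, and lists called at different effective thresholds cannot be compared in level. Since the design has a single condition with 2 libraries, no sample groups could be tested against each other. Differences in covered share between zones are mostly set against the replicate SD. Contrasts of cluster score, cluster length and gaps are given without one.

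The proximal 2 Mb of 2L consisted of a nearly unmarked outer part and a densely marked inner block. Its covered share was 39.0% in replicate 1 and 36.0% in replicate 2 (mean 37.5% ± 2.08, SD, n = 2), and 44.0% in the repset list. The rest of 2L was covered over 2.71% ± 0.581 (SD, n = 2). Of the 400 tiles, 141 were covered over at least 50% in both replicates and are called marked; over all sequences 14.8% of tiles met this rule. A further 12 tiles reached 50% in replicate 1 only, 2 in replicate 2 only, and 245 in neither. Over all 27949 tiles these counts were 375, 82 and 23346. In the repset list 172 tiles reached 50%, where 18.0% of all tiles did.

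**Figure D1:**
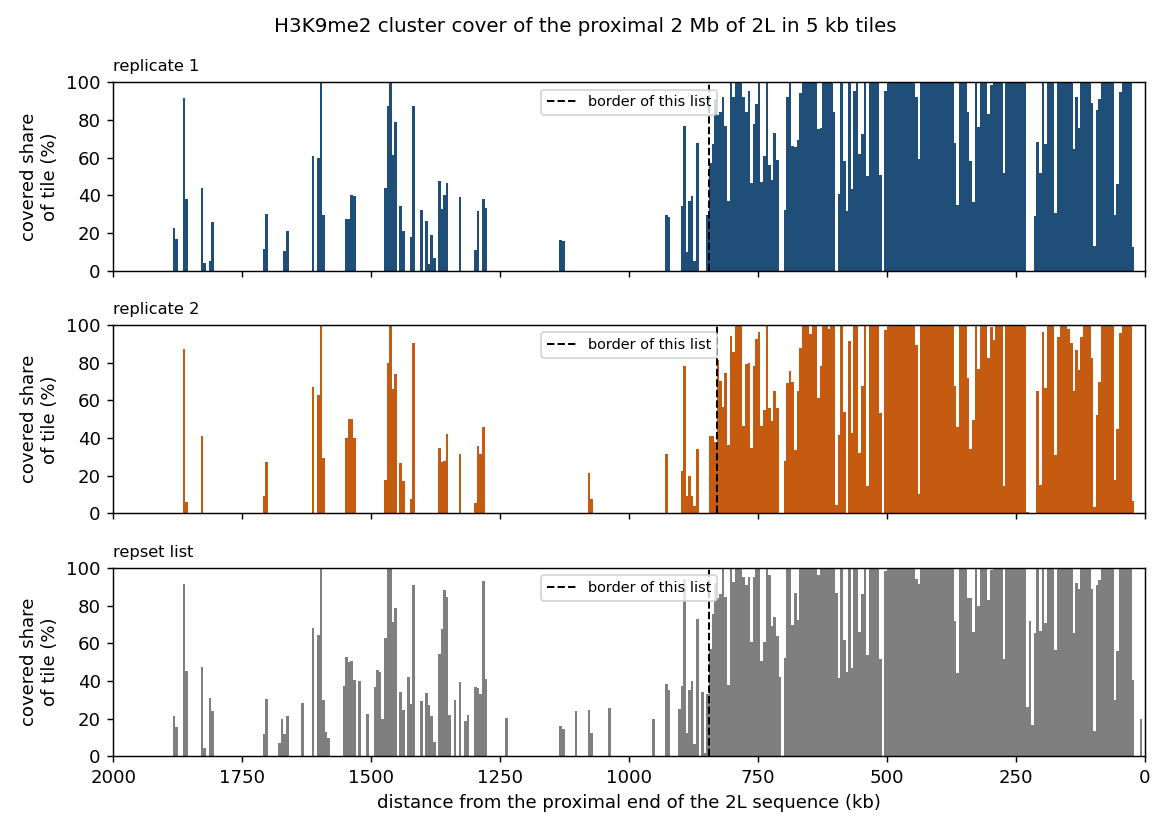
Covered share (%) of each 5 kb tile (bars) along the proximal 2 Mb of 2L, against the distance from the proximal end of the sequence in kb, for replicate 1, replicate 2 and the repset list. The dashed line is the fitted border of each list, 845 kb from the end in replicate 1 and the repset list and 830 kb in replicate 2; tall bars fill most of the block to its right and only short groups of bars stand to its left.

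The start of the block was located as the single step in the tile shares with the least squared error, fitted in each list. In replicate 1 the step fell at 22166545, which is 845 kb from the proximal end of the sequence. In replicate 2 it fell 3 tiles further in, at 22181545, which is 830 kb from the end. The mean distance was 837.5 kb ± 10.6 (SD, n = 2), and the repset list gave the same position as replicate 1. This 1 step accounted for 67.1% of the variance between tiles in replicate 1 and 63.5% in replicate 2.

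The border was placed on these same shares so as to part high from low tiles, so the cover on its sides is a description of the fit. Proximal to its own border, replicate 1 was covered over 80.2% and replicate 2 over 76.4% (mean 78.3% ± 2.68, SD, n = 2). Distal to it, the shares were 8.82% in replicate 1 and 7.40% in replicate 2 (mean 8.11% ± 1.01, SD, n = 2). In the repset list they were 85.3% inside and 13.8% outside. For what follows, the block runs from the more proximal border, 22181545, to the end of the sequence at 23011544 (166 tiles), and the distal side runs from 21011545 to 22166544 (231 tiles). Over these fixed limits the block was covered over 78.4% ± 2.78 and the distal side over 7.90% ± 1.31 (SD, n = 2), a ratio of 9.92 between the means.

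The replicates differed over the 15 kb between their borders. Replicate 1 covered 71.8% of it, replicate 2 covered 40.0% and the repset list covered 74.7%. Its 3 tiles had shares of 57.1%, 67.3% and 90.9% in replicate 1, against 40.9%, 41.3% and 37.9% in replicate 2. Both replicates thus had clusters there, and they differed in how much of each tile these filled.

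The width of the transition was measured on a smoothed profile. A running mean over 10 tiles (50 kb) was last under 25% at a window centred 20 kb outside the border and first reached 75% at a window centred 25 kb inside it, in each replicate. The transition measured in this way was 45 kb wide in both replicates, at a resolution of 5 kb, and 75 kb wide in the repset list. This width is close to the window itself, so the window limits how narrow a transition can be seen. The level of 75% also lies near the cover inside the border, which was 80.2% in replicate 1 and 76.4% in replicate 2. The width thus depends on that cover as well. When clusters under the median score of their list were left out, the width was 160 kb in replicate 1 and 35 kb in replicate 2. Mean cover inside the border was then 69.8%, under the level of 75%.

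Bands counted from the border of each list show the same step in raw cover. The borders of the replicates lie 15 kb apart, so a band does not hold the same bases in both. From 200 to 100 kb outside the border no base was covered in either replicate. From 100 to 50 kb outside, cover was 9.21% in replicate 1 and 16.1% in replicate 2. From 50 to 25 kb outside it was 33.8% in replicate 1 and 9.46% in replicate 2, the widest spread of these bands (SD 17.2, n = 2), which includes the offset of the borders. In the last 25 kb outside it was 19.4% in replicate 1 and 24.0% in replicate 2. The first 25 kb inside were covered over 76.5% in replicate 1 and 63.8% in replicate 2, and the next 25 kb over 79.7% and 95.9%. Within the 200 kb outside the border, cover thus lay only in the nearest 100 kb. It did not rise evenly towards the border in either replicate.

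**Figure D2:**
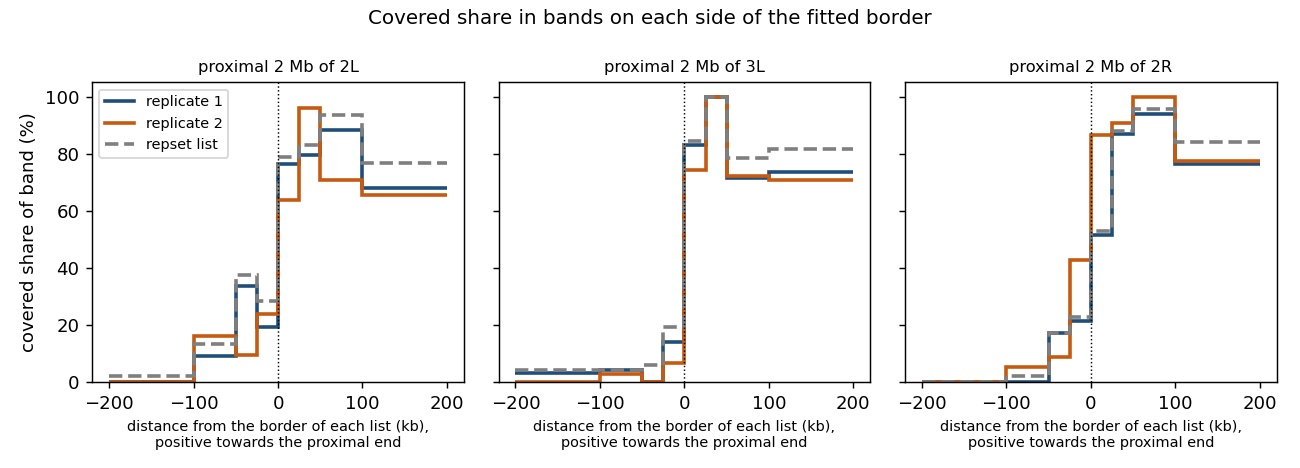
Covered share (%) in bands of 25 to 100 kb on each side of the fitted border, against the distance from the border of each list in kb (positive towards the proximal end), for 2L, 3L and 2R; lines are replicate 1, replicate 2 and the repset list (dashed). On 2L the last 25 kb outside are covered over 19.4% and 24.0% in the replicates and the first 25 kb inside over 76.5% and 63.8%.

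At the level of single clusters, the block began after a long open stretch and a scatter of short clusters. No cluster of either replicate lay between 21936930 and 22083725, a stretch of 147 kb. After it came short, low-scoring clusters. The last one that ended outside the border in replicate 1 spanned 1.48 kb, from 22161549 to 22163026, and no cluster of replicate 2 touched it. The first one inside the border of replicate 1 ran from 22168692 to 22173355 over 4.66 kb. In replicate 2 a cluster of 5.98 kb, from 22179651 to 22185629, lay across the border itself. Its next cluster inside, from 22187391 to 22190327, spanned 2.94 kb.

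Cluster scores were higher in the first 100 kb of the block than in the 100 kb outside it. Bins of this width cannot show whether scores changed at the border itself. Scores are the authors' own values on a scale that is not stated, and they are compared only within a list. In replicate 1 the 13 clusters centred in the first 100 kb of the block had a median score of 1.30. The 12 clusters in the 100 kb outside it had a median of 0.549, and none of them was in the upper 50% of that list. In replicate 2 the 14 clusters inside had a median of 1.40, against 0.774 for the 8 outside, of which again none was in the upper 50%. By score, the first clusters of the block were thus near the middle of the list of replicate 1 (median percentile 52.2) and below it in replicate 2 (39.9). In the repset list the 11 clusters inside were at median percentile 62.9, and 90.9% of them were in the upper 50%. Of the 12 repset clusters outside, 16.7% were in the upper 50%.

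Further in, several bins had higher or lower scores in both replicates, but not all bins did. Between 300 and 400 kb inside the border the median score was 2.41 in replicate 1 (4 clusters) and 2.53 in replicate 2 (3 clusters). Between 400 and 500 kb it was 1.03 and 1.05 (5 clusters each), and between 500 and 600 kb it was 2.25 and 2.53 (4 and 5 clusters). Between 600 and 700 kb the replicates went opposite ways from their block medians of 1.55 and 1.56. The median there was 1.66 in replicate 1 (6 clusters) and 1.49 in replicate 2 (8 clusters). Between 700 and 800 kb the median was 0.947 in replicate 1 (8 clusters) and 1.08 in replicate 2 (7 clusters). These bins hold few clusters, they were singled out after their values were seen, and no trend was drawn from them.

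Long clusters stood well inside the block. The most distal cluster over 20 kb in replicate 1 began 164 kb inside the block and was 34.1 kb long. Replicate 2 had 3 clusters over that stretch, which covered 96.5% of it. The first cluster over 20 kb of replicate 2 began 295 kb inside and was 23.1 kb long. The longest cluster of the block was nearly the same in both replicates. It spanned 66.9 kb from 22576453 to 22643378 in replicate 1 and 66.8 kb from 22576444 to 22643236 in replicate 2, so its ends differed by 9 bp and 142 bp.

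The block was composed of these long clusters and many short ones. Replicate 1 had 58 clusters centred in the block, with a median length of 6.05 kb, and 12 of them, each over 20 kb, held 61.2% of the summed cluster length. Replicate 2 had 61 clusters with a median of 5.77 kb, and 10 over 20 kb held 51.5%. On the distal side the medians were 1.96 kb over 39 clusters in replicate 1 and 2.01 kb over 29 clusters in replicate 2, close to 2.02 kb and 1.92 kb on the rest of 2L, and no cluster exceeded 20 kb. The median score of the block was 1.55 in replicate 1 and 1.56 in replicate 2, at median percentiles 58.1 and 44.2 of the lists. On the distal side it was 0.634 and 0.947, at median percentiles 21.7 and 22.2.

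**Figure D3:**
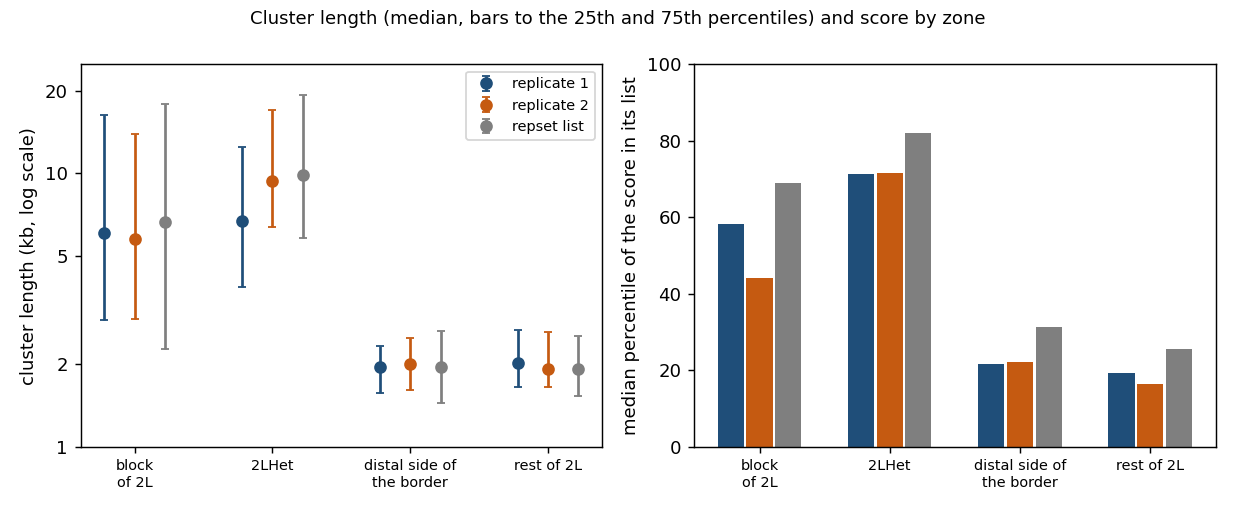
Left, cluster length in kb on a log scale (points are medians, bars run from the 25th to the 75th percentile); right, median percentile of the cluster score within its own list (bars), for the block of 2L, 2LHet, the distal side of the border and the rest of 2L in replicate 1, replicate 2 and the repset list. Block and 2LHet medians lie between 5.77 and 9.81 kb, and those of the other zones between 1.92 and 2.02 kb.

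In tiles, the block was mostly filled. Of its 166 tiles, 131 were marked in both replicates (78.9%, against 14.8% of all tiles), 8 in replicate 1 only, none in replicate 2 only and 27 in neither. In both replicates 79 tiles were covered in full (47.6%, against 7.26% of all tiles), and 9 held no cluster (5.42%, against 74.1%). Of these 9, 5 also had no cluster in the repset list, where over all sequences 19596 of 20700 such tiles had none. Runs of at least 4 consecutive marked tiles numbered 14 on 2L, of which 13 lay in the block. The longest covered 75 kb from 22336545 to 22411544 (15 tiles). Runs of 14 tiles followed from 22576545 to 22646544 and from 22841545 to 22911544, and a run of 13 tiles from 22506545 to 22571544. In the run of 40 kb from 22741545 to 22781544, every base was covered in all 3 lists.

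In 100 kb windows counted from the proximal end, cover did not fall steadily towards the border. It was highest in the window 400 to 500 kb from the end, with 97.6% in replicate 1 and 95.0% in replicate 2. The window 500 to 600 kb from the end was lower, with 70.0% and 65.0%, and that from 600 to 700 kb was again higher, with 87.7% and 83.1%. The window next to the end had 63.6% in replicate 1 and 59.5% in replicate 2. The window from 800 to 900 kb, which holds the border, had 49.5% and 35.5%, and the one outside it 2.90% and 1.57%.

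Gaps within the block were mostly short. Bases under no cluster of either replicate made up 157 kb, or 18.9% of the block, in 57 stretches, of which 40 were at least 1 kb long. Only 6 were at least 5 kb long. These 6 held 73.4 kb, or 46.7% of the open bases, so the remaining open bases were spread over short interruptions between neighbouring clusters. The median of the stretches of at least 1 kb was 2.41 kb. Over these 40 stretches, the replicates' own gaps ended a median of 150 bp apart per edge, but single edges differed by up to 16462 bp. Gaps of 1 replicate that the other filled do not enter this median.

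The longest gap of the block was its end. No cluster of either replicate lay in the last 24.4 kb of the 2L sequence, from 22987170 to 23011544. The repset list covered 9.81% of it, with a longest open part of 13.6 kb. The last cluster before it was 25.4 kb long in replicate 1, at score percentile 75.1, and 25.1 kb long in replicate 2, at percentile 67.6. In the replicate lists clusters thus ran up to about 25 kb from the end and none was called after it. Whether reads could be placed there, and how many of its bases are assembly gaps, was not assessed here, for this or any other gap.

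The next longest gap spanned 15.0 kb from 22781590 to 22796586. In replicate 1 a cluster of less than 2 kb separated it from another of 5.07 kb, from 22798052 to 22803124. Replicate 2 had no cluster between them, so that its own gap ran on to 22803171. The repset list covered 38.1% of the longer and 65.7% of the shorter of these, and left no open part of 5 kb in either. A gap of 13.8 kb lay from 22301172 to 22314938, about 120 kb inside the border, and the repset list left 10.1 kb of it open.

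A further 2 gaps exceeded 5 kb. One of 7.70 kb, from 22411776 to 22419473, was covered over 53.5% by the repset list. The other, of 7.46 kb from 22499210 to 22506665, was covered over only 0.510% by that list, and its edges differed by 129 bp and 111 bp between the replicates. It separated densely marked runs of 25 kb and 65 kb. Of the 6 gaps, 3 kept an open part of at least 5 kb in the repset list. The remainder of the 10 longest were 4.90 kb, 4.72 kb, 3.52 kb and 3.46 kb long, and of these the repset list covered 0.286%, 63.1%, 0.312% and 19.2%.

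**Figure D4:**
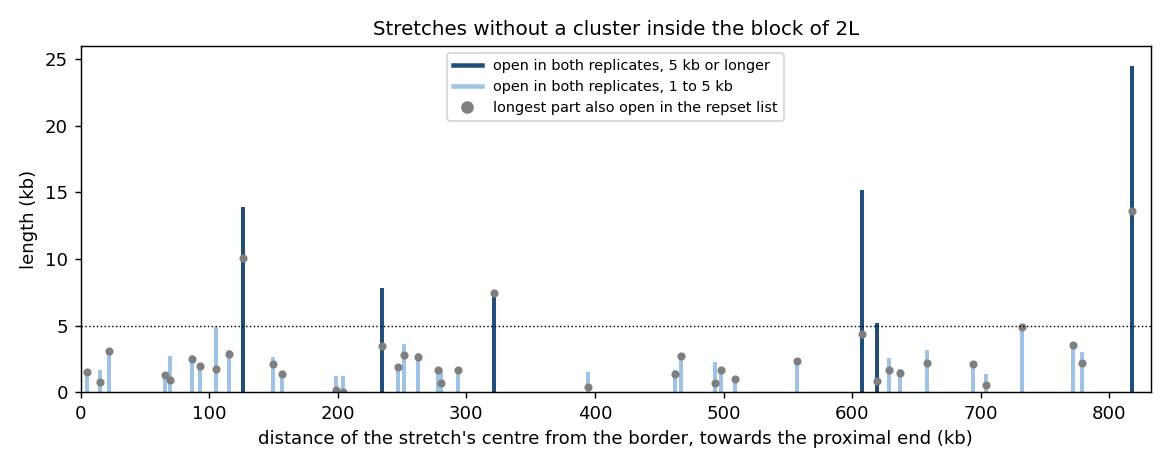
Length in kb of each stretch of at least 1 kb inside the block of 2L that no cluster of either replicate covers (vertical lines, dark from 5 kb), against the distance of its centre from the border in kb; grey points give the longest part of it that is also open in the repset list. The 6 dark lines include the final 24.4 kb of the sequence and stretches of 15.0, 13.8, 7.70, 7.46 and 5.07 kb.

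On the distal side of the border the mark was sparse, with local islands. Of its 231 tiles, 10 were marked in both replicates (4.33%, below the 14.8% of all tiles), and 173 held no cluster in either (74.9%, near the 74.1% of all tiles). Its covered share, 7.90% ± 1.31, was 2.91 times that of the rest of 2L and 1.28 times that of the 2 Mb just outside it, which was 6.16% ± 0.520 (SD, n = 2). The difference from that neighbouring 2 Mb is 1.73 percentage points, and the larger of the SDs is 1.31. Open stretches of at least 100 kb numbered 4, and the first base of the region lay within one of them, of 199 kb from 20931636 to 21130406.

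Bases covered in both replicates formed 27 islands on the distal side, with a median length of 1.82 kb and 72.3 kb in all. The 5 longest held 47.3% of that length. The longest spanned 9.48 kb from 21408543 to 21418022, with scores of 1.21 in replicate 1 and 1.60 in replicate 2. A pair lay close together, 8.63 kb from 21542991 to 21551621 and 6.71 kb from 21553541 to 21560252. The first of this pair had scores of 2.84 in replicate 1 and 2.47 in replicate 2, at percentiles 89.2 and 66.6 of the lists. The others spanned 4.75 kb from 21591159 to 21595912 and 4.66 kb from 21147191 to 21151850.

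The pair formed the only run of at least 4 marked tiles on the distal side, 20 kb from 21541545 to 21561544, covered over 82.0% in replicate 1 and 80.0% in replicate 2. The 100 kb window around it, 1400 to 1500 kb from the end, had 28.2% in replicate 1, 24.0% in replicate 2 and 40.5% in the repset list. Directly before it, no cluster of either replicate lay from 21481148 to 21539177 (58.0 kb), of which the repset list covered 19.4%. Between this group and the border the windows 900 to 1200 kb from the end were nearly empty, with at most 2.90% in either replicate.

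2LHet was also densely covered, but less than the block and with wider gaps. Clusters covered 68.9% of it in replicate 1, 67.0% in replicate 2 (mean 67.9% ± 1.33, SD, n = 2) and 71.1% in the repset list. The mean was 10.4 percentage points under that of the block, more than either replicate SD. The block was delimited on these same shares and 2LHet by its sequence ends, so this difference is a description only. Of the 74 tiles of 2LHet, 52 were marked in both replicates (70.3%, against 14.8% of all tiles), 2 in replicate 1 only, none in replicate 2 only and 20 in neither. Tiles covered in full in both numbered 28 (37.8%, against 7.26%), and 15 held no cluster in either (20.3%, against 74.1%). Of these 15, 14 also had none in the repset list, where over all sequences 19596 of 20700 such tiles had none.

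A single stretch accounted for most of the empty tiles of 2LHet. From 62766 to 119241, over 56.5 kb, no cluster of either replicate was placed, and the repset list covered 0.0761% of it. It held 50.6% of the open bases of 2LHet. Its edges differed by 21 bp and 70 bp between the replicates. The second gap spanned 21.6 kb from 214504 to 236080, and in replicate 2 the open stretch around it began earlier, at 209526. The third spanned 8.42 kb from 261839 to 270254. Next in length came gaps of 4.99 kb and 3.40 kb.

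Between the gaps the marked runs were long. The last 93.9 kb of 2LHet, from 275001 to 368872, was a run of 19 tiles, the longest marked run of the region, with 95.0% covered in replicate 1 and 93.5% in replicate 2. A run of 60 kb lay from 150001 to 210000. Clusters reached the last base of the sequence and began close to its first. The first began at base 1338 in replicate 1 and at base 310 in replicate 2, and the last ran to the end in both. The longest cluster of replicate 1 spanned 44.4 kb from 275260 to 319684, where replicate 2 had 3 clusters that covered 98.8% of it.

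**Figure D5:**
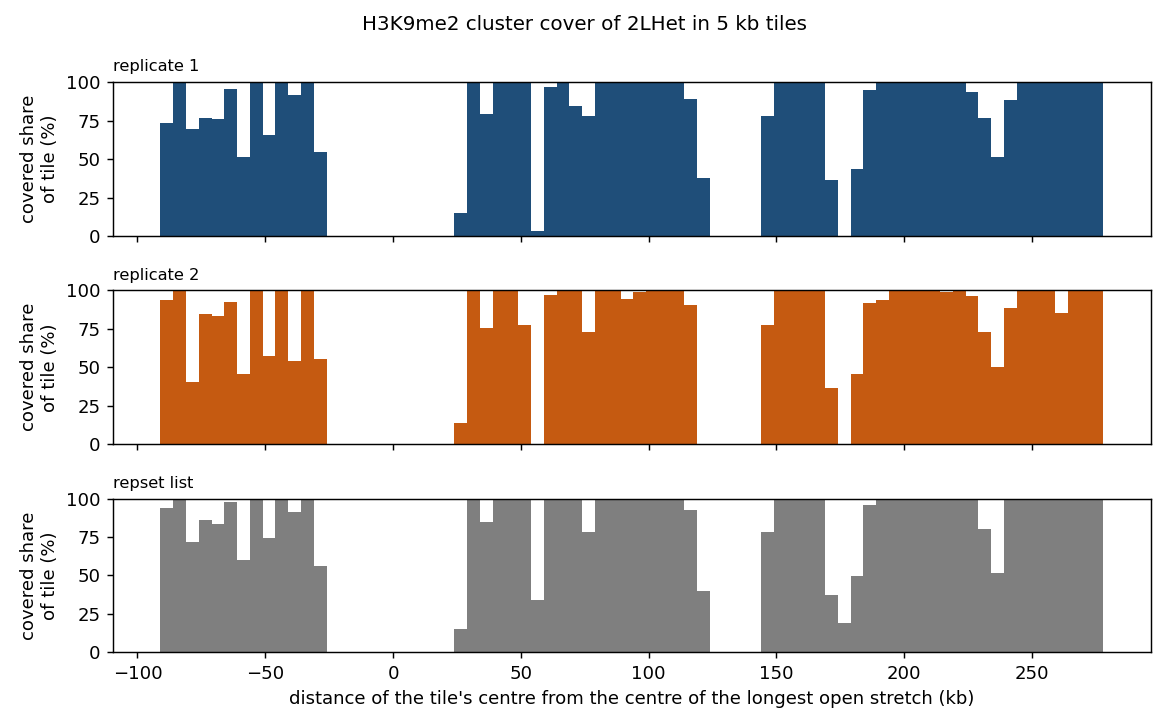
Covered share (%) of each 5 kb tile of 2LHet (bars), against the distance in kb of the tile's centre from the centre of the longest open stretch, for replicate 1, replicate 2 and the repset list. The open stretch of 56.5 kb and a second of 21.6 kb are seen in all 3 lists, and bars near 100% fill most of the remainder.

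Clusters of 2LHet scored higher in their lists than those of the block. The median score was 2.19 on 2LHet and 1.55 on the block in replicate 1, and 2.62 and 1.56 in replicate 2. In percentiles of each list these were 71.3 and 58.1 in replicate 1, and 71.6 and 44.2 in replicate 2. Of 21 clusters on 2LHet, 17 in replicate 1 and 16 in replicate 2 were in the upper 50% by score. On the block this held for 37 of 58 and 27 of 61. Median lengths on 2LHet, 6.69 kb in replicate 1 and 9.33 kb in replicate 2, set against 6.05 kb and 5.77 kb on the block, were higher in both lists. The order of the sequences from the arm into 2LHet is not given in the files, so no distance was measured across them.

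The bases covered in both replicates were counted in each zone. In the block the replicates shared 628 kb, which was 94.2% of the bases covered in replicate 1 and 99.0% of those covered in replicate 2. On 2LHet they shared 96.0% and 98.7%. On the distal side they shared 71.0% and 89.8%. Where shares are high, agreement is also high by chance, so these values do not rank the zones. Across the 474 tiles, which neighbour each other and share both libraries, the shares of the replicates had Pearson's r = 0.978 and Spearman's rho = 0.968 as a description. The shares differed by over 20 percentage points in 37 tiles, and where they differed at all replicate 1 was higher in 124 tiles and replicate 2 in 44. Over all 27949 tiles, 1234 differed by over 20 percentage points. Replicate 1 was higher in 3848 of all tiles and replicate 2 in 1364, so the lean to replicate 1 was not particular to this region.

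The same step fit was applied to the proximal 2 Mb of 3L and 2R, whose release 5 sequences also end in marked blocks. The block of 2L was the shortest, with 837.5 kb ± 10.6, against 1535 kb in both replicates of 3L and 1547.5 kb ± 17.7 on 2R (SD, n = 2). These lengths depend on where each arm sequence was ended in the assembly. The part outside the border was covered over 8.11% ± 1.01 on 2L, 4.82% ± 0.885 on 3L and 5.94% ± 0.524 on 2R (SD, n = 2). It was longer on 2L, with 231 and 234 tiles in replicates 1 and 2, than on 3L (93 in both) and 2R (88 and 93). These shares were thus taken over unlike distances from the border and do not rank the arms. The part inside was covered over 78.3% ± 2.68 on 2L, against 82.9% ± 1.95 on 3L and 83.9% ± 1.38 on 2R (SD, n = 2). The transition of 2L, 45 kb, lay between those of 3L (35 kb) and 2R (65 kb), each the same in both replicates. In the repset list the order differed, with 75 kb on 2L, 35 kb on 3L and 65 kb on 2R. The upper level of 75% used for the width lies nearer to the inside cover of 2L than to that of 3L or 2R. The widths thus depend on inside cover as well and do not rank the arms by sharpness.

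Gaps of at least 5 kb were about as frequent on 2L as on the other arms, with 7.23 per Mb of block on 2L, 8.47 on 3L and 6.51 on 2R. The longest was 24.4 kb on 2L, 15.1 kb on 3L and 11.2 kb on 2R. An open end was measured on 2L (24.4 kb) and on 2R (11.2 kb), while clusters reached the last base of 3L. The 56.5 kb gap took up 15.3% of 2LHet. Longer gaps occurred on 2RHet (114 kb) and 3RHet (73.2 kb), where they took up 3.47% and 2.91% of much longer sequences (3289 and 2518 kb). On XHet, which is shorter than 2LHet (204 kb), the longest gap of 25.3 kb took up 12.4%. Gaps of at least 5 kb together took up 23.4% of 2LHet. On the other Het sequences they took up between 9.41% (3LHet) and 49.5% (XHet). No test was made of these differences between sequences.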

How the data were processed

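The authors deposited, per the file headers, lists of regions of significant enrichment on FlyBase release 5, with a score per cluster for 2 ChIP libraries and for the replicate set. Bowtie 0.12.7 is among the tools in the submitters' processing notes. The cluster caller, its threshold, the scale of the score and the way the replicates were combined are not stated in the headers or labels used. The 2 input libraries have no list of their own here.

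Clusters running past the end of a sequence were trimmed there (1 in each list, on 2LHet, among those used here). Covered shares, step fits, gaps and counts were computed with Python 3.11.15, numpy 2.4.6, pandas 2.3.3 and scipy 1.17.1, and plotted with matplotlib 3.10.9. The functions were tested on simulated arms with known borders. Clusters were assigned to zones by their centre. Tiles over all sequences were cut from the first base of each sequence. The regions, rules and alternatives were chosen with earlier results of these data known. Regions named in the text are the longest clusters, those next to the border, the 10 longest gaps of the block and 5 of 2LHet, the 5 longest islands outside the border and runs of at least 4 marked tiles, with a few others chosen after their values were seen (single tiles and windows, the open stretches outside the border, the first long clusters, and the first and last clusters). The alternatives tried were a cut at the median score of each list, the repset list, merging of clusters closer than 1 kb, other tile lengths, windows and thresholds, and leaving out each replicate.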

Additional observations from a re-analysis of the deposited data

How the results depend on the processing

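Of 48 alternative values over 9 results, 31 moved by no more than the replicate SD or, for counts, stayed within 1.5 times. These include every value from merging clusters closer than 1 kb and every one without replicate 1 or 2, which by construction moves a mean of 2 by less than their SD and shows nothing about stability. When only clusters at or above the median score of their list were kept (the upper 50%), cover was 28.2% of the proximal 2 Mb and 61.0% of 2LHet, the border lay 732.5 kb from the end (800 kb in replicate 1, 665 kb in replicate 2), cover was 69.8% inside and 3.96% outside it, the transition was 97.5 kb wide (160 and 35 kb) and 12 shared gaps of at least 5 kb were counted. Fewer clusters by construction lower the shares, but the cause of the moved border and of its width was not tested, so 845 and 830 kb hold for the full lists only. With the repset list the shares were 44.0% and 71.1%, with 85.3% inside and 13.8% outside the border, and the transition was 75 kb wide, while the border stayed at 845 kb. The width was 42 kb with 1 kb tiles, 50 kb with 10 kb tiles and 85 kb with a running mean over 100 kb, so it follows the window. Counting gaps from 2 kb gave 23 and from 10 kb gave 3, in place of 6. The border moved little with 1 kb tiles (837.5 kb), 10 kb tiles (835 kb) or 2 steps (837.5 kb). Depth, assembly gaps and the placement of reads in repeats could not be assessed. No paired analysis was possible because no comparison between groups was made: inputs share the replicate numbers of the ChIP libraries but have no cluster list of their own.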

Other observations

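Some clusters of the repset list were touched by no cluster of either replicate (not over even 1 bp). They made up 9 of the 59 repset clusters of the block, 1 of 17 on 2LHet and 24 of 61 on the distal side of the border. The share of such clusters over the whole repset list is not given here, so these counts do not tell whether any zone is unusual. Those of the block were short, between 1.00 and 3.47 kb, with 14.6 kb in all, and had a median score of 2.57, above the median of 0.753 over the whole repset list. Those of the distal side were also short, with a median of 1.31 kb against 1.32 kb in the block, but their median score was 0.510. In the last 30 kb of the 2L sequence, where both replicates had an open end, the repset list placed 2 such clusters at a median score percentile of 99.2. The shortest cluster was 1001 bp long in the repset list, against 1301 bp in replicate 1 and 1302 bp in replicate 2. How the repset list was made is not given in the sources used here, and the reason for these clusters was not tested.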
